A study of Mus musculus with 4 samples.

Results

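The mitochondrial chromosome of the mouse contributed 8 loci of 35299 to the table of read counts, found as all loci whose transcript model lies on chrM of mm9. For 6 of them the gene positions were given with that rule, and 2 (Rnr1 and Atp8-Atp6) were the remaining loci on that chromosome. The RNA came from hearts of C57BL/6J mice after sham surgery, in 4 libraries of 1 group, Sham, the only group analysed here. The labels number the libraries as replicates without saying that each is a separate animal. The mice were 12 weeks old, and the tissue, taken 2 weeks after surgery, came from the border zone of a sham infarct. The labels describe replicate 4 once as infarct border without the word sham, although its title and treatment say sham. RNA was isolated with Trizol, poly(A)-selected and sequenced as read pairs of 100 bases each. The 4 libraries are headed 3RL, 7LR, 8R and 12RL, which are not tied to replicate numbers, so the library of replicate 4 is not known. Values are given in the order 3RL, 7LR, 8R and 12RL wherever no library is named. Summed over the loci of the table, 140554089, 142524825, 160670654 and 108345923 reads were recovered. Whether each of these stands for a single read or for a pair was not determined. Nuclear loci carry no gene symbols in the files, so markers of heart cells and nuclear genes of the respiratory chain were not analysed here.

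Mitochondrial DNA is a small circle that encodes core subunits of respiratory complexes I, III and IV and of ATP synthase, together with the ribosomal and transfer RNAs used to translate them. Most of its genes are read from 1 strand as a long precursor. The precursor is cut at the transfer RNAs that lie between the genes, and the messenger RNAs then receive short poly(A) tails while the ribosomal RNAs receive only a few adenines. Heart muscle is rich in mitochondria, and much of its poly(A) RNA is mitochondrial.

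GENCODE M21 annotates 13 protein-coding genes, 2 ribosomal RNAs and 22 transfer RNAs on the mitochondrial chromosome. Each of the 8 deposited loci has 1 single-exon UCSC model on the plus strand, with lengths from 690 to 2883 bases. They were named from their positions and from RefSeq's gene order (GRCm38.p6), without converting coordinates. The rRNA loci are Rnr1 (XLOC_034011) at chrM 70 to 852 (12S ribosomal RNA) and Rnr2-Nd1 (XLOC_034012) at chrM 1149 to 3703 (16S ribosomal RNA with complex I subunit ND1). The complex I loci are Nd2 (XLOC_034013) at chrM 3849 to 4933 and Nd4l-Nd4 (XLOC_034017) at chrM 9876 to 11542. The complex IV loci are Co1 (XLOC_034014) at chrM 5327 to 6938, which encodes the catalytic subunit of cytochrome c oxidase, and Co2 (XLOC_034015) at chrM 7010 to 7699, whose subunit takes electrons from cytochrome c. The ATP synthase locus, Atp8-Atp6 (XLOC_034016), lies at chrM 7766 to 8607. The last, Nd5-Cytb (XLOC_034018) at chrM 12406 to 15288, joins a part of complex I subunit ND5 with cytochrome b of complex III. Of the 13 coding genes, 10 fell in these loci. The genes mt-Co3 and mt-Nd3 lie in the interval of 1268 bases between Atp8-Atp6 and Nd4l-Nd4, which has no model and so no count. The remaining gene, mt-Nd6, is encoded on the other strand opposite Nd5-Cytb. Its reads cannot be told from those of Nd5-Cytb here, because the strandedness of the libraries is not given in the sources used here.

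Several of these genes share bases with a neighbour or lack a complete stop codon. The sequences are shown because 1 locus then counts 2 genes, and because only the poly(A) tail completes some reading frames. They are the GENCODE M21 transcripts, 5′ to 3′. In the first pair, capitals mark the 43 bases that mt-Atp8 and mt-Atp6 have in common, and in the second the 7 bases shared by mt-Nd4l and mt-Nd4.
mt-Atp8: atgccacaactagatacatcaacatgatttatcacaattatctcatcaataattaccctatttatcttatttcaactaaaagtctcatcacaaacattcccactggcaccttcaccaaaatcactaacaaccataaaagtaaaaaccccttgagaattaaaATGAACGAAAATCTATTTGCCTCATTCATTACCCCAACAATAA
mt-Atp6 start: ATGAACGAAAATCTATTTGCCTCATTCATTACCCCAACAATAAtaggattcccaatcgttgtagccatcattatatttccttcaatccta
mt-Nd4l end: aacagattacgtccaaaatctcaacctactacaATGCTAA
mt-Nd4 start: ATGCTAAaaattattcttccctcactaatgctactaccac

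Of the 13 coding genes, 3 ended in a single T rather than a full stop codon (mt-Co3, mt-Nd4 and mt-Cytb). The tail of adenines is known to complete such a codon to TAA. Capitals mark the last codon, or its first base where it is incomplete.
mt-Co1 end: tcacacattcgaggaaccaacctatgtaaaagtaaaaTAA
mt-Co2 end: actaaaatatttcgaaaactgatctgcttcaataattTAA
mt-Nd4 end: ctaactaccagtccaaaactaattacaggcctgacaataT
mt-Cytb end: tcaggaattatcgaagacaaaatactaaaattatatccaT

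The 12 coding genes of the plus strand were poor in G, at 5.88% to 16.1% of bases, with 22.1% to 30.0% C. The other strand's mt-Nd6 had 28.1% G and 5.97% C, the reverse composition.

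Co1 dominated the mitochondrial counts, while Atp8-Atp6 made the smallest part of them. Values are normalised read counts, which the authors made by dividing the reads of a locus by a size factor of its library. Co1 had 18935385, 17650570, 22136173 and 19101877. The next locus, Nd5-Cytb, had 12439177, 10486071, 11949131 and 11520858. Co1 was highest in 8R and Nd5-Cytb in 3RL, both were lowest in 7LR, and the ranges of these loci did not overlap.

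Nd4l-Nd4 had 7006562, 6288286, 7888408 and 6517898. Co2 had 5509197, 5047828, 6711127 and 5581642. Rnr2-Nd1 had 4663013, 4386425, 5609666 and 5038036. In each of these 3 loci 8R was highest and 7LR lowest, and the ranges of Nd4l-Nd4 and Co2 overlapped. Nd2, for a subunit in the membrane arm of complex I, had 3480444, 3159939, 4153493 and 3433658, again with 8R highest and 7LR lowest.

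The 2 remaining loci were far lower. Rnr1 had 252012, 243760, 348090 and 305625, so that 8R and 12RL were above 3RL and 7LR. Atp8-Atp6, which encodes the proton-channel subunit a of ATP synthase and its small partner, had 70629, 94708, 128416 and 35728. It was highest in 8R and lowest in 12RL, and its highest value was below the lowest value of every other mitochondrial locus.

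**Figure D1:**
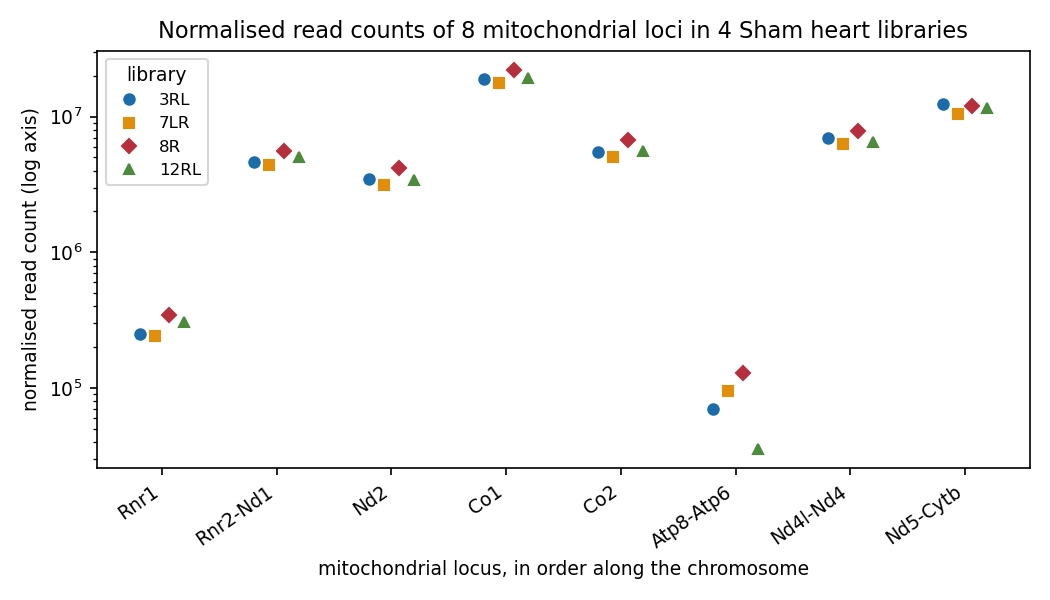
Normalised read counts (log axis) of the 8 mitochondrial loci, ordered along the chromosome, with 1 point per Sham library. Co1 lies highest, between 17650570 and 22136173, and Atp8-Atp6 lowest, between 35728 and 128416, with the widest spread.

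Divided by length, which comparing different loci needs, the order changed below Co1. Co1 had 12069 ± 1179 normalised counts per base (SD, n = 4) and was first of all loci in the table. Co2 was short and only in place 4 by count, but was second per base with 8279 ± 1024. Nd4l-Nd4 (4154 ± 425) and Nd5-Cytb (4023 ± 288) followed, then Nd2 (3278 ± 389) and Rnr2-Nd1 (1927 ± 207), all in normalised counts per base. These 6 were the 6 highest of all 35299 loci per base. The highest nuclear locus, at chr2 113873025 to 113878547, came next with 999 ± 164 counts per base. Rnr1 was in place 10 with 367 ± 62.4 and Atp8-Atp6 in place 28 with 97.8 ± 46.4 counts per base.

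Neighbours in this order were compared within each library by the log2 difference of levels per base. The order came from the same 4 libraries, so the pairs and their directions were not set beforehand. The test was the exact sign-flip test, two-sided. The smallest p that 4 libraries allow is 0.13, so none of the 7 pairs could pass 0.05. In 6 of 7 pairs the difference had the same sign in 4 of 4 libraries, with p = 0.13 in each (exact sign-flip test; 0.146 after Benjamini-Hochberg adjustment over the 7 pairs). Co1 was above Co2 by 0.55 ± 0.04 on the log2 scale (SD, n = 4), or 1.46-fold. Co2 was above Nd4l-Nd4 by 0.99 ± 0.06, or 1.99-fold. Nd5-Cytb was above Nd2 by 0.30 ± 0.13, and Nd2 above Rnr2-Nd1 by 0.77 ± 0.06, both on the log2 scale. The exception was Nd4l-Nd4 against Nd5-Cytb, whose difference of 0.04 ± 0.11 was within the spread between libraries (exact sign-flip p = 0.625) and changed sign between libraries. It was above 0 in all 4 libraries when 1 read length was taken from each locus length.

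The 16S and 12S loci differed more. Rnr2-Nd1 exceeded Rnr1 per base 5.67-fold, 5.51-fold, 4.94-fold and 5.05-fold, a narrow range. The Rnr2-Nd1 model also contains the messenger RNA of Nd1, so the value is not a ratio of the 2 ribosomal RNAs. The RNA was poly(A)-selected, so the levels of these loci, here and above, cannot be read as the abundance of the ribosomal RNAs in the tissue. The part of that selection in these levels was not tested. Reads over the rest of mt-Rnr1, which is 955 bases long in GENCODE against 783 in the model, were not counted in this locus.

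Atp8-Atp6 was the low exception among the coding loci, although Co2 lies directly before it in the gene order. Per base, Co2 exceeded it 95.2-fold, 65.0-fold, 63.8-fold and 191-fold. Nd4l-Nd4, the next locus after it, exceeded it 50.1-fold, 33.5-fold, 31.0-fold and 92.1-fold. The low level was thus seen in all 4 libraries and was most marked in 12RL.

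Nuclear copies of mitochondrial DNA bear on these levels, because reads that match both places equally may be counted in either or in none. How such reads were counted is not given in the sources used here. Each mitochondrial gene was therefore cut into windows of 100 bases, the read length, which were searched for on both strands of the 141730 other transcripts of GENCODE M21. Exact copies were found in 10 pairs of a gene and an unprocessed pseudogene, 7 on chromosome 1 and 3 on chromosome 2. The 7 on chromosome 1 copy mt-Co1 to mt-Nd4 with the exception of mt-Atp8, all on the minus strand. Only copies that GENCODE annotates as transcripts can be found this way. A window stands for 1 read of a pair, so a second read outside the copy is not taken into account.

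Of the windows of mt-Atp6, 579 of 582 (99.5%) occurred in the pseudogene Gm10925, with an unbroken shared run of 678 bases. Of those of mt-Co2, 582 of 585 (99.5%) occurred in Gm28661, with a run of 681 of its 684 bases. Over the windows of all genes in a locus, the share was 99.5% for Co2 and 84.3% for Atp8-Atp6, which includes mt-Atp8. Windows that cross from a gene into its neighbour were not searched. For mt-Nd4l, 195 of 198 windows were shared, for mt-Nd4 777 of 1279 (60.8%) and for mt-Co1 446 of 1446 (30.8%). For mt-Nd2 the number was 30 of 939. The shares depended on window length, and with windows of 50 bases they were 51.1% for mt-Co1 and 8.19% for mt-Nd2. None of the windows of mt-Rnr1, mt-Rnr2, mt-Nd1, mt-Nd5, mt-Cytb, mt-Nd6 or mt-Atp8 was found at 100 bases, while 7.61% of the windows of mt-Nd5 and 1.04% of those of mt-Rnr2 were found at 50 bases. Levels of Co2, Atp8-Atp6, Nd4l-Nd4 and Co1 are uncertain to the extent that reads were split or dropped, and the part of the copies in each level was not tested.

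**Figure D2:**
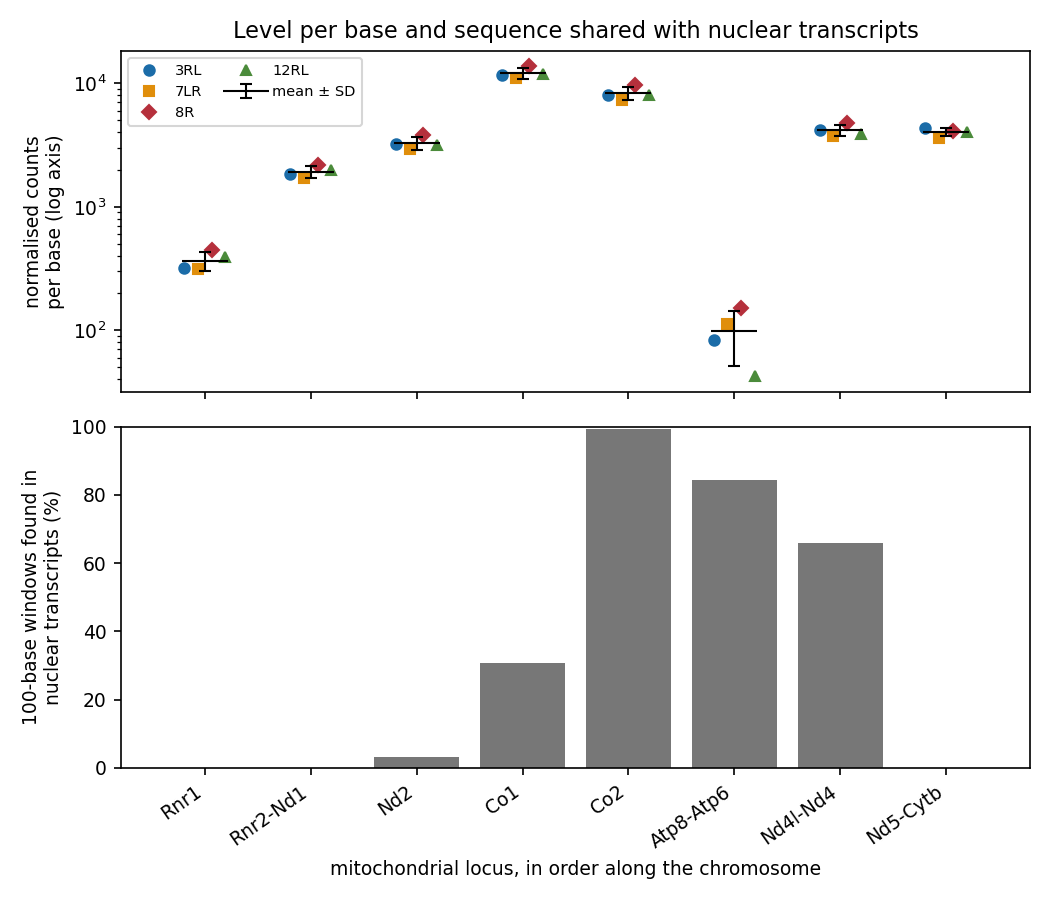
Upper panel: normalised counts per base (log axis) of the 8 loci, with points for the 4 libraries and bars for the mean ± SD. Lower panel: percentage of 100-base windows of the genes in each locus that occur exactly in a GENCODE M21 transcript off the mitochondrial chromosome. Co2 (99.5%) and Atp8-Atp6 (84.3%) have the highest shared percentages, while Co2 has the second highest level and Atp8-Atp6 the lowest.

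The deposited models also hold a nuclear locus with the length of Atp8-Atp6. It lies on the minus strand at chr1 24620810 to 24621651, has 1 exon of 842 bases and a UCSC model, and was picked out after its values had been seen. Of 34 single-exon loci off the mitochondrial chromosome that match the length of any of the 8, it is the only one with a UCSC model and reads. The other 33 never exceeded 252 normalised counts. It had 146141, 103514, 85774 and 54011 normalised counts. It was above the mitochondrial locus in every library other than 8R. Whether it is the copy named Gm10925 was not tested, since that annotation is of another build.

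The mitochondrial part of the 2 loci together was 32.6%, 47.8%, 60.0% and 39.8%, highest in 8R. Their sum was 216770, 198222, 214190 and 89738. The sum was close in 3 libraries and lower in 12RL. Per base, the sum was between 1.32% (12RL) and 3.22% (3RL) of the level of Co2, for which no nuclear locus was added. Reads counted in neither locus are not in the sum, and the part of the copies was not tested.

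**Figure D3:**
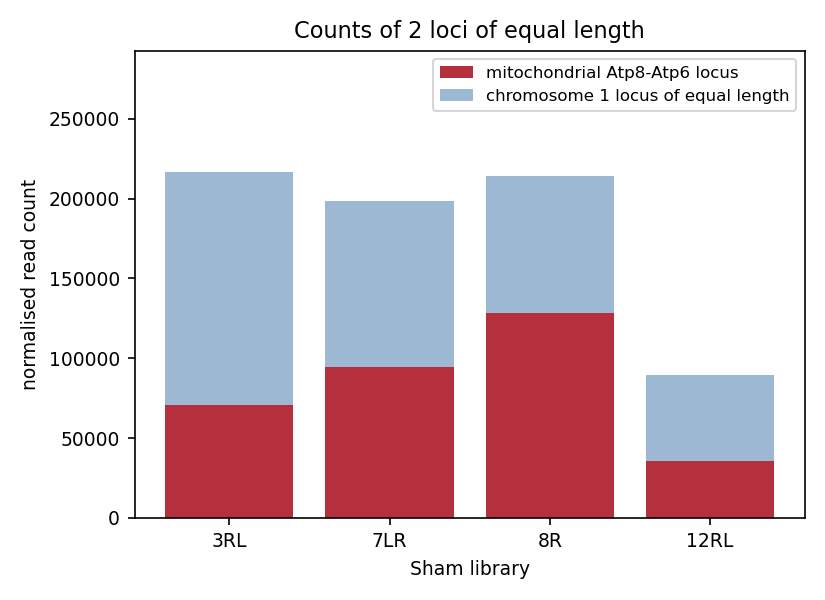
Stacked bars of normalised read counts for the mitochondrial Atp8-Atp6 locus and the chromosome 1 locus of equal length in each Sham library. The totals run from 198222 to 216770 in 3RL, 7LR and 8R and reach 89738 in 12RL, and the mitochondrial part runs from 32.6% to 60.0%.

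Atp8-Atp6 varied more between the libraries than the other mitochondrial loci. Its highest library was 3.59 times its lowest, where the other 7 ran from 1.19 (Nd5-Cytb) to 1.43 (Rnr1). A ratio above 3 was met by 1.63% of the 14424 loci whose mean count was at least 50. The CV over libraries was 47.5% for Atp8-Atp6, and counting error in its least covered library was 0.664%. In the set made of it and the 500 loci nearest in mean, 99.4% had a lower CV, and the median was 8.70%. The chromosome 1 locus of equal length also varied widely, with a CV of 39.5% and a ratio of 2.71. In its own set of loci nearest in mean, 99.0% had a lower CV. For Atp8-Atp6 the ratio of highest to lowest was 1.82 without 12RL and 2.65 without 8R. The order of the 4 values of Atp8-Atp6 was that of the recovered reads summed over all loci (12RL, 3RL, 7LR, 8R). The part of depth in it was not tested.

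The other 7 loci had CVs from 7.17% (Nd5-Cytb) to 17.0% (Rnr1), with counting error at or below 0.227%. The median over all 8 was 11.3%, beside 10.6% over the 14424 loci. It was 6.26% without 8R and 6.60% with equal table totals. Without 8R the CV was 4.28% for Co1, 5.38% for Co2, 5.16% for Nd2, 5.55% for Nd4l-Nd4 and 6.96% for Rnr2-Nd1, and without 7LR that of Nd5-Cytb was 3.84%. None of the 8 had 1 library apart from the other 3 by Dixon's criterion, which 4.6% of the 14424 loci met. Rnr1 had a CV above 89.0% of its set of loci nearest in mean. For Co1 (9.77%), Co2 (12.4%), Nd2 (11.9%), Nd4l-Nd4 (10.2%) and Rnr2-Nd1 (10.7%) that percentage ran from 56.5% to 73.9%, and for Nd5-Cytb it was 32.9%. For these 6 the set was the most abundant loci of the table, down to a mean of 34714. For Rnr1, with a mean of 287372, the set reached down to a mean of 34335.

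**Figure D4:**
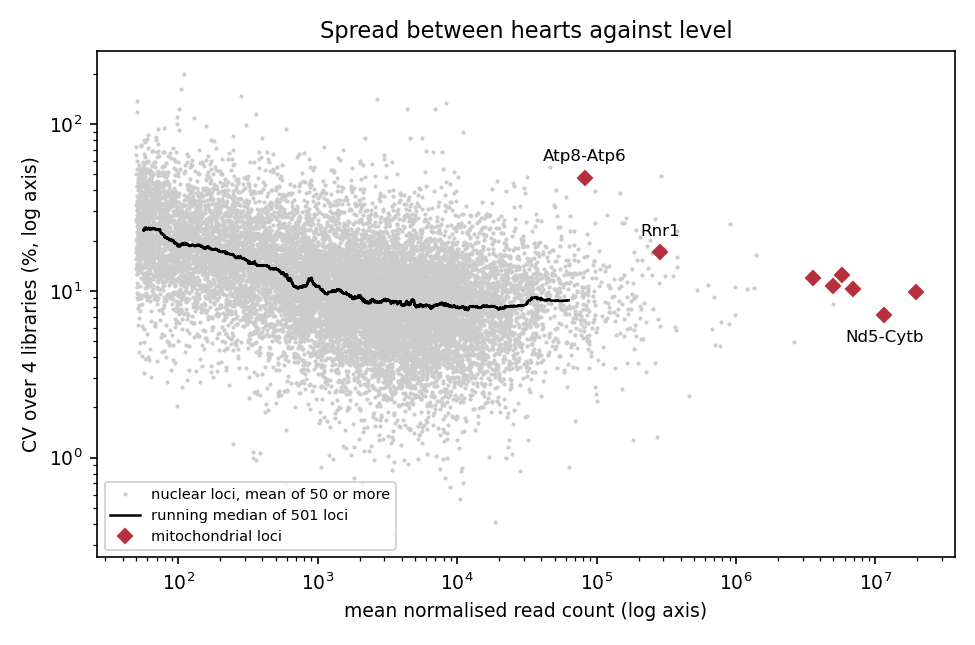
CV over the 4 libraries (%, log axis) against the mean normalised read count (log axis). Grey points are nuclear loci whose mean is at least 50, the line is their running median, and diamonds are the mitochondrial loci. Atp8-Atp6 (47.5%) lies far above the line, and Nd5-Cytb (7.17%) is the lowest of the 8.

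Summed over the 8 loci, the mitochondrial count was 52356421, 47357586, 58924503 and 51535321. These were 31.2%, 29.2%, 32.3% and 30.2% of the table total. The exact 95% binomial intervals of these shares reached at most 0.00864 percentage points to each side, for counting error only. The spread between the libraries was thus far larger than counting error. The summed count had a CV of 9.11% and the count off the mitochondrial chromosome one of 3.45%. Fewer cells of a type and less RNA per cell cannot be told apart in such tissue.

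Library 8R was highest for 7 of the 8 loci, and 7LR was lowest for 7 of 8. Among the 14424 loci, 38.6% were highest in 8R and 29.1% lowest in 7LR. Both held for 6 of the 8, beside 17.5% of the 14424. The 8 loci come from shared precursors and the same libraries, so they are not 8 independent observations. The exceptions were Nd5-Cytb, which was highest in 3RL, and Atp8-Atp6, which was lowest in 12RL. With equal table totals or equal totals off the mitochondrial chromosome, 8R stayed highest for 7 loci and 7LR was lowest for 6.

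In each library, the deviations of 7 of the 8 mitochondrial loci lay to 1 side of the median of nuclear loci of like length. The nuclear loci themselves lie on both sides of that median by construction. In both 8R and 12RL, 7 of the 8 loci were above the nuclear median of like length, and in both 3RL and 7LR 1 of the 8 was. The median deviation of the 8 in 3RL was -0.04, beside 0.04 for the nuclear medians. Each locus was set beside nuclear loci within 25% of its spliced length, because the nuclear deviations differ with length. Values are log2 deviations from the mean of the 4 libraries. In 8R the nuclear median was 0.21 for the length of Co2, the shortest locus, and 0.08 for that of Nd5-Cytb, the longest. In 8R, Co2 was at 0.24, beside 0.21 (287 loci). Co1 was at 0.19 beside 0.13 (1536 loci), Nd2 at 0.23 beside 0.17 (736 loci) and Rnr2-Nd1 at 0.19 beside 0.09 (3029 loci). In 8R 7 of the 8 loci were above the median of like length, Nd5-Cytb being the exception at 0.05 beside 0.08 (3478 loci). Of the nuclear loci of like length in 8R, 40.9% were below Nd5-Cytb, 64.5% below Co2, 70.6% below Co1 and 83.2% below Rnr1. For Atp8-Atp6 in 8R the percentage was 99.1%, and for Nd4l-Nd4 in 12RL it was 50.8%. How far length accounts for the mitochondrial values was not tested.

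In 7LR, 7 of the 8 loci were below the medians of like length, for example Co1 at -0.14 beside -0.10, and Atp8-Atp6 was above at 0.35 beside -0.13. The 12S locus Rnr1 departed further. It was at -0.17 in 3RL beside a median of 0.04, and at 0.10 in 12RL beside -0.11 (388 loci). Atp8-Atp6 departed most, at 0.79 in 8R beside 0.19 and at -1.06 in 12RL beside -0.11 (449 loci). In 12RL 0.445% of the nuclear loci of like length were lower than it.

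**Figure D5:**
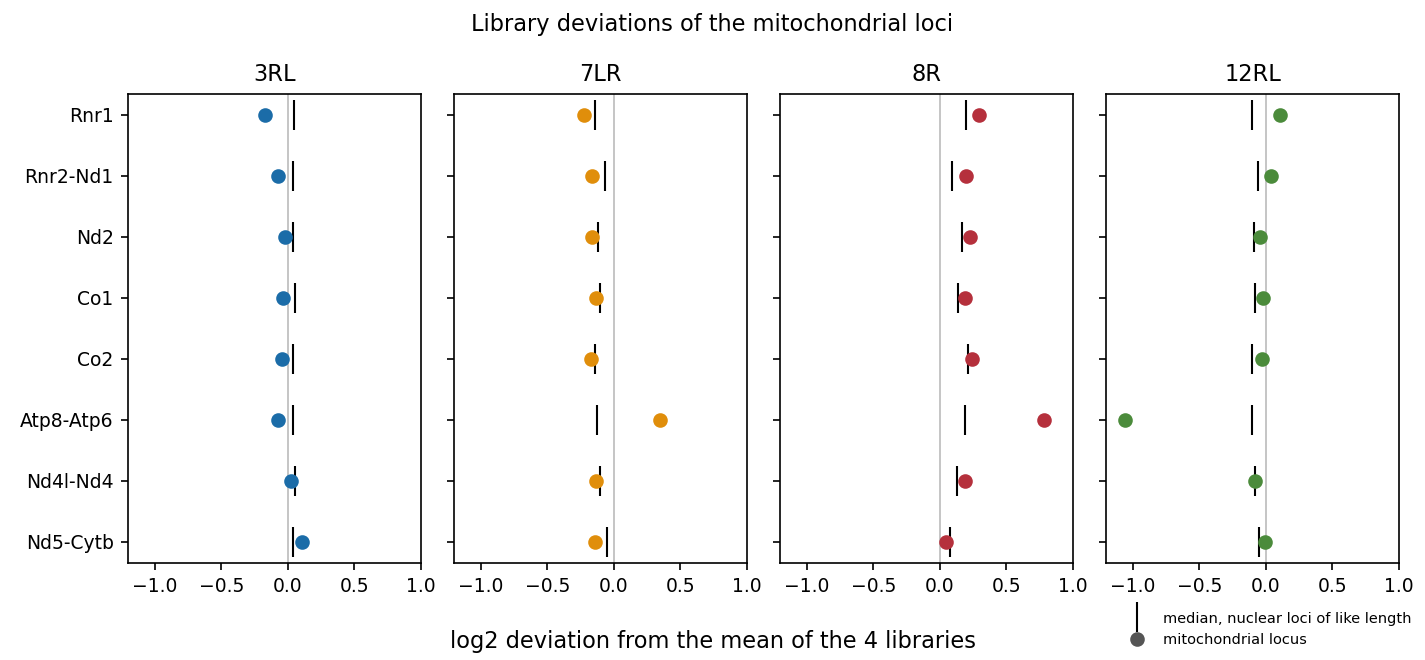
Log2 deviation of each mitochondrial locus from its mean over the 4 libraries (points), 1 panel per library, with the median deviation of nuclear loci within 25% of its spliced length (black ticks). In 8R and 12RL 7 of 8 points lie above their ticks, and in 3RL and 7LR 1 of 8. Atp8-Atp6 lies apart in 7LR, 8R (0.79) and 12RL (-1.06).

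The makeup of the mitochondrial counts, which no library scaling affects, was nearly constant for the most abundant locus. Co1 took 36.2%, 37.3%, 37.6% and 37.1% of them. Nd5-Cytb moved more, with 23.8%, 22.1%, 20.3% and 22.4%. Its share was highest in 3RL and lowest in 8R. Rnr1 moved from 0.481% in 3RL to 0.593% in 12RL, and Rnr2-Nd1 from 8.91% to 9.78% in the same libraries. Both rRNA loci thus had their lowest share in 3RL and their highest in 12RL. The shares of Co2 (10.5% to 11.4%), Nd2 (6.65% to 7.05%) and Nd4l-Nd4 (12.6% to 13.4%) varied less. Atp8-Atp6 varied most, with 0.135%, 0.200%, 0.218% and 0.0693% and a CV of the share of 43.5%.

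The nuclear loci most like the summed mitochondrial count in pattern were taken as the 3 with the smallest root mean square difference of log2 deviations over the 4 libraries. The search covered 9114 loci whose mean was at least 1000. They lay at chr9 110666038 to 110679842, chr7 72012204 to 72017926 and chr8 108734954 to 108775594, with differences of 0.0041, 0.0042 and 0.0048 on the log2 scale. The chr9 locus had 693644, 625598, 779941 and 686095 normalised counts. The median difference over the 9114 loci was 0.12, and 10.3% were under 0.05, so many loci came close to this pattern.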

How the data were processed

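Poly(A)-selected RNA of heart was measured in 4 Sham libraries. The deposited table holds signal values for 35299 loci, in which the authors scaled each library's reads by 1 size factor. The deposited models give exon positions on mm9. The submitters' processing notes name HTSeq 0.5.4p2, Cufflinks 2.0.2, TopHat2 2.0.5 and DESeq. Counting mode and strandedness are in none of the sources used here. Every value was a whole multiple of 1 step within 0.001 (100% of loci), so whole reads were recovered. With 1 group no count test applied.

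All loci on chrM were taken and named, with the 3 nuclear loci nearest in pattern and the highest nuclear locus per base. Members and lists were chosen with earlier results of these data known. Levels were divided by the union of exon lengths. Deviations used log2(value + 1), so differences of low loci are understated, and nuclear loci of like length had a mean of 50 or more. Lists of nuclear gene symbols were not used, because the files pair no symbols with loci. The search for shared windows and the chromosome 1 locus were added after the data were seen. Only some steps were tried on simulated data: size factors, the highest library, Dixon's criterion and the CV beside loci near in mean. The window search, the sign-flip test, the deviations by length and the search for like patterns were not. Python 3.11.15, numpy 2.4.6, pandas 2.3.3, scipy 1.17.1 and, for TMM scaling, edgeR 4.0.16 in R 4.3.3 were used. P-values refer to mean log2 differences within these 4 libraries only.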

Additional observations from a re-analysis of the deposited data

Results flagged for a closer look

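In 30 sets of 4 values, 1 library lay far from the others in 3, a criterion that chance meets in about 1 of 20 sets. Among all 14424 loci with a mean of 50 or more, 4.6% met it. The share of Nd2 in the mitochondrial counts was 7.05% in 8R, with the other libraries from 6.65% to 6.67%. The share of Nd4l-Nd4 was 12.6% in 12RL, with the others from 13.3% to 13.4%. The sum of Atp8-Atp6 and the chromosome 1 locus was 89738 in 12RL, with the others from 198222 to 216770. Library 12RL has the fewest recovered reads over the loci of the table, 108345923. What sets these values apart was not tested.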

How the results depend on the processing

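The share of mitochondrial counts, 30.7% on average, stayed within 1 SD of that value in all alternatives run for it. Several of these could not differ. Size factors cancel in a share, so recovered reads gave the same value, and leaving out 1 of 4 libraries cannot move a mean by 1 SD. With loci of a UCSC model as the denominator the share was 30.9%. Without the most abundant locus that has no such model it was 30.8%. The 3 loci nearest in pattern were the same with a lower minimum mean. In 8R, 7 loci were above the median of nuclear loci of like length with other limits on length and mean. Equal table totals cannot change either of these. The ratio of the highest to the lowest library for the summed count was 1.24, and 1.11 with equal table totals. The median CV of the 8 loci was 11.3%, and 6.60% with equal table totals. The highest level per base was 123 times the lowest, and 32.9 times without Atp8-Atp6, by construction. The share of Co1 was 37.0% by count and 35.3% per base. The ratio of 3.59 for Atp8-Atp6 was 2.42 with the chromosome 1 locus added and 3.36 to 3.50 under the other scalings. These alternatives, and leaving out the locus, were chosen after seeing the data. Leaving out 1 library gave 1.11 to 1.24 for the summed ratio, 6.26% to 13.6% for the median CV (lowest without 8R), 104 to 145 for the level ratio, and 1.82 (without 12RL) to 3.59 for Atp8-Atp6. It gave 30.2% to 31.2% for the share of all counts and 36.8% to 37.3% for that of Co1. Of 240 alternative values for single loci and genes, 212 were close to the main value or, for log2 differences, only of the same sign. For mean levels and shares, close meant within 1 SD over the 4 libraries. Leaving out 1 of 4 libraries cannot move a mean that far, so those alternatives could only be close. Of the others, 27 moved and 1 turned direction. The last was the log2 difference between Nd4l-Nd4 and Nd5-Cytb, 0.04 with all libraries, -0.0056 without 8R and at most 0.0708 when another was left out. Genomic span and longest spliced model equal the union of exons for these single-exon loci, so those alternatives could not differ. With windows of 50 bases in place of 100, chosen after seeing the data, the shared percentage was 51.1% for mt-Co1, 8.19% for mt-Nd2, 7.61% for mt-Nd5 and 1.04% for mt-Rnr2. For the values that moved, the cause was not tested unless construction gives it. The alternative for nuclear genes of oxidative phosphorylation was not run, since loci have no symbols. No paired analysis was possible because only 1 group of hearts was analysed. The lowest value rests on 22660 reads (Atp8-Atp6 in 12RL), so counting error is small, and other effects of depth were not tested.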
